A study of Homo sapiens with 21 samples.

Results

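9 genes were chosen because each was shifted in the same direction in all 5 overexpressing lines of HCC1806 cells, which were established from a triple-negative tumour of the human breast. They are PRKCQ, OLFM4 and VTCN1, which were lower than in the control in each line, and CPVL, TSPAN8, POF1B, LRCH2, AGTR1 and CHST9, which were higher. They are 9 of the 60668 genes listed in the 2 deposited count tables. They were selected on the fitted log2 fold changes of each line against its control, so their direction and size against the control are given as a description, without a test. The rule set no size of change, and a shift common to all lines may mark the state of the controls as well as that of the lines.

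The study measured polyA-selected RNA of HCC1806 cells grown as an adherent culture, in 7 groups of 3 libraries (21 in all). The first table held 3xCTL (labelled control), 3xSR (by the series title SRSF2, SRSF3 and SRSF7 together) and MYC-OE, which is compared here with 3xCTL because no other control stands in its table. The second table held 1xCtrl, a control with a single plasmid, and SRSF2-OE, SRSF3-OE and SRSF7-OE, which overexpress these splicing factors of the SR family one at a time. The vectors, their promoters, and whether a line is a clone or a pool are not given in the sources used here, nor is whether the replicates were separate cultures, so p-values measure the spread between these libraries, which may be technical.

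Depth was between 143269192 and 303323552 counts a library. Levels are given as CPM (counts scaled to 1e+06 per library) on a scale set jointly for the 21 libraries, although the tables were deposited separately. Of the targeted genes, SRSF3, SRSF7 and MYC rose in the single lines labelled for them (log2 fold changes 0.49, 0.26 and 0.90, adjusted p 0.000193, 0.00616 and 5.70e-08 by edgeR's quasi-likelihood test). MYC also rose in 3xSR, SRSF3-OE and SRSF7-OE (0.75, 0.26 and 0.27), SRSF3 in 3xSR and SRSF2-OE (0.31 and 0.30), and SRSF7 in 3xSR and SRSF2-OE (0.44 and 0.24). SRSF2 did not rise where it is labelled: its level was 397 ± 19.0 CPM in SRSF2-OE against 445 ± 26.2 in 1xCtrl, and 386 ± 12 in 3xSR against 404 ± 18.3 in 3xCTL (SD, n = 3 each). These totals cannot separate an introduced copy from the cell's own gene, and SRSF2-OE and 3xSR below mean the libraries labelled so. The 7 basal and squamous epithelial markers summed to between 4232 and 5378 CPM in every library, while the 8 leukocyte markers summed to 1.81 to 4.51 CPM. Of these the T-cell gene CD2 was at 0 in all libraries (3 counts being the limit a count of 0 allows), CD3D and CD3E had group means of at most 0.0233 CPM, and the myeloid genes CD14 and CSF1R held 0.727 to 2.08 and 0.998 to 2.03 CPM, with CSF1R highest in 3xCTL. The 6 fibroblast markers summed to 46.9 to 48.9 CPM in 3xCTL, 27.7 to 32.7 in 1xCtrl and 14.7 to 25.5 in the overexpressing lines. LUM, which encodes the proteoglycan lumican, held most of that sum in 3xCTL (37.8 ± 2.00 CPM), whereas COL1A1 lay between 7.08 and 9.54 CPM in the group means and DCN stayed at or below 0.421 CPM. PGR, the progesterone receptor gene, was at 0.192 ± 0.111 CPM in 3xCTL and 1.27 ± 0.163 in 1xCtrl against group means of at most 0.0117 in the lines. The part of these markers in the results below was not tested, and in bulk RNA fewer cells of a type and less RNA per cell cannot be told apart.

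The 9 genes do not form 1 pathway. PRKCQ encodes protein kinase C theta, a diacylglycerol-activated kinase best known from T-cell receptor signalling, where it feeds the CARD-BCL10-MALT1 complex and NF-kappaB. OLFM4 encodes a secreted glycoprotein with an olfactomedin domain, known as a marker of stem cells in the intestinal crypt, and VTCN1 encodes B7-H4, a member of the B7 family of immune ligands found on breast epithelium that dampens T-cell responses. CPVL encodes a serine carboxypeptidase, TSPAN8 a tetraspanin of the cell surface, POF1B an actin-binding protein of epithelial cells, and LRCH2 a protein with leucine-rich repeats and a calponin homology domain. AGTR1 encodes the angiotensin II receptor type 1, a G-protein-coupled receptor, and CHST9 encodes a sulfotransferase that adds sulfate to N-acetylgalactosamine on sugar chains.

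The genes lie on 8 chromosomes in GENCODE 29 (GRCh38), and all 9 are protein-coding. PRKCQ is at chr10:6427143-6580301 and OLFM4 at chr13:53028759-53052057, and VTCN1 is at chr1:117143587-117210960. CPVL is at chr7:28995231-29195451, TSPAN8 at chr12:71125085-71441898, AGTR1 at chr3:148697784-148743008 and CHST9 at chr18:26906481-27185317. POF1B (chrX:85277396-85379743) and LRCH2 (chrX:115110616-115234072) share the X chromosome. OLFM4 and AGTR1 are on the plus strand and the others on the minus strand. Among 24420 genes with a value, the members' genomic spans fell between the 54.8th (OLFM4) and the 97.2th percentile (TSPAN8), and their transcript GC content between the 2.82th (LRCH2) and the 46.3th (PRKCQ), so each of the 9 was longer and lower in GC than the median gene.

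Promoter windows of 250 bases before the RefSeq start (GRCh38.p14) were found for 7 of the 9 genes (10 windows, since some genes have several). They are shown for all 3 lowered genes and for 2 raised genes, so that the letters in both directions can be compared. Each is written 5' to 3' on the gene's own strand, and capitals mark matches, on either strand, to the CCAAT letters, the TATA box TATAAA, the GC box GGGCGG, the AP-1 motif TGANTCA or the TEAD motif GGAATG. No 2 of these matches overlap.
PRKCQ, chr10:6580647-6580896: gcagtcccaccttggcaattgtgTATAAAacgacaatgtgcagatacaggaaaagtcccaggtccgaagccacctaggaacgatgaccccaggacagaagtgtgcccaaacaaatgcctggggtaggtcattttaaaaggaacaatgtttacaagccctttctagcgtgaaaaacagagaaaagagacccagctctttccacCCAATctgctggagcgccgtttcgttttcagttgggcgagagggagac
OLFM4, chr13:53028563-53028812: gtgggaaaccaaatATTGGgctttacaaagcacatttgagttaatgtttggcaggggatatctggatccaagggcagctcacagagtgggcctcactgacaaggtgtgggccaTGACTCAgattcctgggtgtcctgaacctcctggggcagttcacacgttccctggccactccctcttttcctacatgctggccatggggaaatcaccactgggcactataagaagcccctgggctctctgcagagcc
VTCN1, chr1:117210928-117211177: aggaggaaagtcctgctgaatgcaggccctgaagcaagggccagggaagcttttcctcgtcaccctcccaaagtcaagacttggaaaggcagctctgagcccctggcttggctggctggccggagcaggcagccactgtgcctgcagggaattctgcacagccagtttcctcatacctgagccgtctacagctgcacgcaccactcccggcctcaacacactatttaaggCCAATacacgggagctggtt
TSPAN8, chr12:71158000-71158249: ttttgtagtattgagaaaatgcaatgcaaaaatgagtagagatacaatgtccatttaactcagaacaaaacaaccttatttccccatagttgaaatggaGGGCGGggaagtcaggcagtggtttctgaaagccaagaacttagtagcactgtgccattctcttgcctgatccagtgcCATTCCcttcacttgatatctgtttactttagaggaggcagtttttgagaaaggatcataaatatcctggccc
POF1B, chrX:85379666-85379915: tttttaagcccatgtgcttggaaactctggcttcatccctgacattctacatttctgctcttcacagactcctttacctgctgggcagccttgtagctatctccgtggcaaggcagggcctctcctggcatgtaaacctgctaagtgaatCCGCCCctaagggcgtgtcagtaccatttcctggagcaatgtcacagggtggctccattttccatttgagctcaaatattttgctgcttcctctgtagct

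The CCAAT letters, or their reverse ATTGG, stood in the windows of all 3 lowered genes: 48 bases before the start in PRKCQ, 236 in OLFM4 and 20 in VTCN1. Of all 35116 RefSeq windows of this length, 32.0% hold them. Among the raised genes they stood in 1 of 7 windows, the one of CPVL at chr7:29190058-29190307. The GC box stood in a window of CPVL, TSPAN8, POF1B and CHST9 (42.6% of all windows) and in none of PRKCQ, OLFM4 and VTCN1. The E-box CACGTG, the letters that MYC with its partner MAX is known to bind, was in none of the 10 windows and is in 6.34% of all. The AP-1 letters stood in the OLFM4 window (6.57% of all), the TATA box letters in that of PRKCQ (10.7%) and the TEAD letters in the TSPAN8 window shown (11.9%). These are descriptions of letters in a short window and not of binding.

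PRKCQ was highest in the 2 controls and lower in every overexpressing line. Its level was 13.2, 12.5 and 12.8 CPM in the 3xCTL libraries, 3.37, 2.97 and 3.51 in 3xSR and 0.713, 0.633 and 0.663 in MYC-OE. In the second table it was 5.86, 5.28 and 6.13 CPM in 1xCtrl, 0.410, 0.296 and 0.341 in SRSF2-OE, 0.384, 0.599 and 0.360 in SRSF7-OE and 1.34, 1.26 and 1.41 in SRSF3-OE. No library of a line overlapped with its control, and in the order of the means only the neighbours SRSF7-OE and SRSF2-OE overlapped. The fitted log2 fold changes against the control were -1.97 ± 0.09 (SE) in 3xSR, -4.26 ± 0.11 in MYC-OE, -4.03 ± 0.21 in SRSF2-OE, -3.68 ± 0.20 in SRSF7-OE and -2.09 ± 0.19 in SRSF3-OE. The kinase's RNA was thus lowest in MYC-OE, SRSF2-OE and SRSF7-OE, and less far from the control in 3xSR and SRSF3-OE.

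OLFM4 was lower by more than 2 log2 units in each line. It was at 5.31, 5.16 and 6.44 CPM in 3xCTL, 0.242, 0.305 and 0.245 in 3xSR and 0.525, 0.354 and 0.592 in MYC-OE. In the second table the 1xCtrl libraries held 1.69, 1.37 and 1.84 CPM, SRSF2-OE 0.493, 0.199 and 0.259, SRSF3-OE 0.138, 0.138 and 0.128, and SRSF7-OE 0.246, 0.0916 and 0.190. The controls stood clear of the lines, but the lines' ranges overlapped from each to the next in the order of their means. The log2 fold changes were -4.41 ± 0.21 in 3xSR, -3.52 ± 0.19 in MYC-OE, -2.35 ± 0.35 in SRSF2-OE, -3.21 ± 0.37 in SRSF7-OE and -3.58 ± 0.38 in SRSF3-OE (SE).

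VTCN1, the B7-H4 gene, showed the lowest level of a lowered gene in SRSF3-OE, where 10, 9 and 11 counts were left. It was at 3.32, 2.91 and 3.33 CPM in 3xCTL, 0.0605, 0.183 and 0.175 in 3xSR and 0.297, 0.249 and 0.482 in MYC-OE. In the second table it was at 1.19, 0.921 and 0.950 CPM in 1xCtrl, 0.240, 0.239 and 0.0882 in SRSF2-OE, 0.0510, 0.0477 and 0.0485 in SRSF3-OE and 0.313, 0.325 and 0.310 in SRSF7-OE. The SRSF3-OE libraries lay under every other library, and SRSF2-OE overlapped with 3xSR and SRSF7-OE with MYC-OE. The log2 fold changes were -4.51 ± 0.37, -3.21 ± 0.33, -2.40 ± 0.30, -4.35 ± 0.35 and -1.69 ± 0.29 (SE) in 3xSR, MYC-OE, SRSF2-OE, SRSF3-OE and SRSF7-OE.

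**Figure D1:**
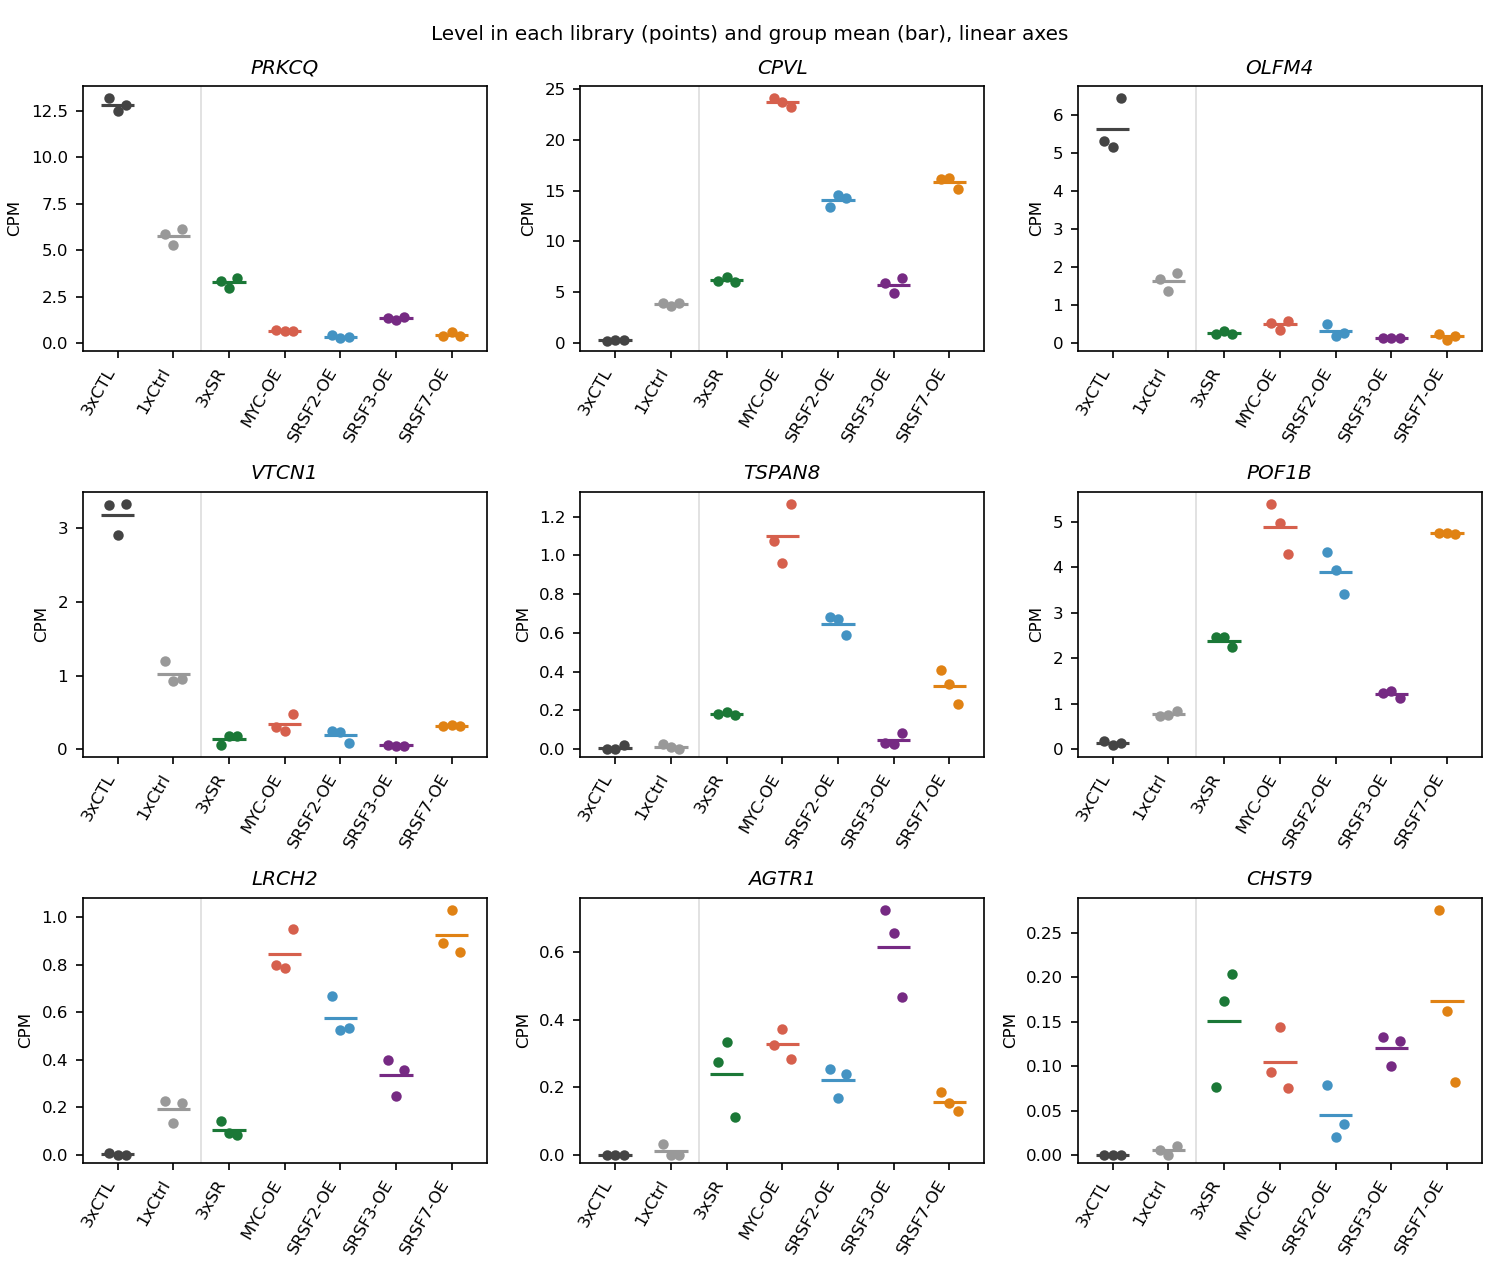
Level of each of the 9 genes in CPM (vertical axes, linear, each from 0) in the 7 groups (horizontal axes); points are the 3 libraries of a group and bars their mean, with the 2 controls left of the grey line. PRKCQ, OLFM4 and VTCN1 are highest in 3xCTL and next in 1xCtrl, while CPVL reaches 23.7 CPM in MYC-OE from 0.270 in 3xCTL.

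Among the raised genes CPVL had the highest level per kilobase of exon. The carboxypeptidase's RNA was at 0.162, 0.308 and 0.340 CPM in 3xCTL, 6.10, 6.51 and 5.99 in 3xSR and 24.1, 23.7 and 23.3 in MYC-OE. In the second table it was at 3.98, 3.63 and 3.90 CPM in 1xCtrl, 13.4, 14.5 and 14.2 in SRSF2-OE, 5.94, 4.89 and 6.44 in SRSF3-OE and 16.1, 16.2 and 15.1 in SRSF7-OE. Each line lay above its own control in every library, with 3xSR and SRSF3-OE overlapping each other. The log2 fold changes were 4.55 ± 0.20 in 3xSR and 6.48 ± 0.21 in MYC-OE but 1.88 ± 0.10, 0.60 ± 0.10 and 2.05 ± 0.10 (SE) in SRSF2-OE, SRSF3-OE and SRSF7-OE, whose control already stood at 3.84 ± 0.180 CPM (SD, n = 3). CPVL shares 197 of its 3340 exon bases with a gene on the opposite strand, ENSG00000285162.1. The libraries were made with a stranded kit, but the strand setting of the counting is not given in the sources used here.

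The group means of POF1B, the gene of the actin-binding protein, stood in the same order as those of CPVL. It was at 0.187, 0.0920 and 0.134 CPM in 3xCTL, 2.46, 2.47 and 2.24 in 3xSR and 5.40, 4.97 and 4.30 in MYC-OE. In the second table it was at 0.723, 0.753 and 0.835 CPM in 1xCtrl, 4.33, 3.94 and 3.42 in SRSF2-OE, 1.23, 1.28 and 1.13 in SRSF3-OE and 4.77, 4.75 and 4.74 in SRSF7-OE. Only MYC-OE and SRSF7-OE overlapped among neighbours in that order. The log2 fold changes were 4.09 ± 0.21, 5.12 ± 0.21, 2.35 ± 0.12, 0.67 ± 0.12 and 2.63 ± 0.12 (SE) in 3xSR, MYC-OE, SRSF2-OE, SRSF3-OE and SRSF7-OE.

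**Figure D2:**
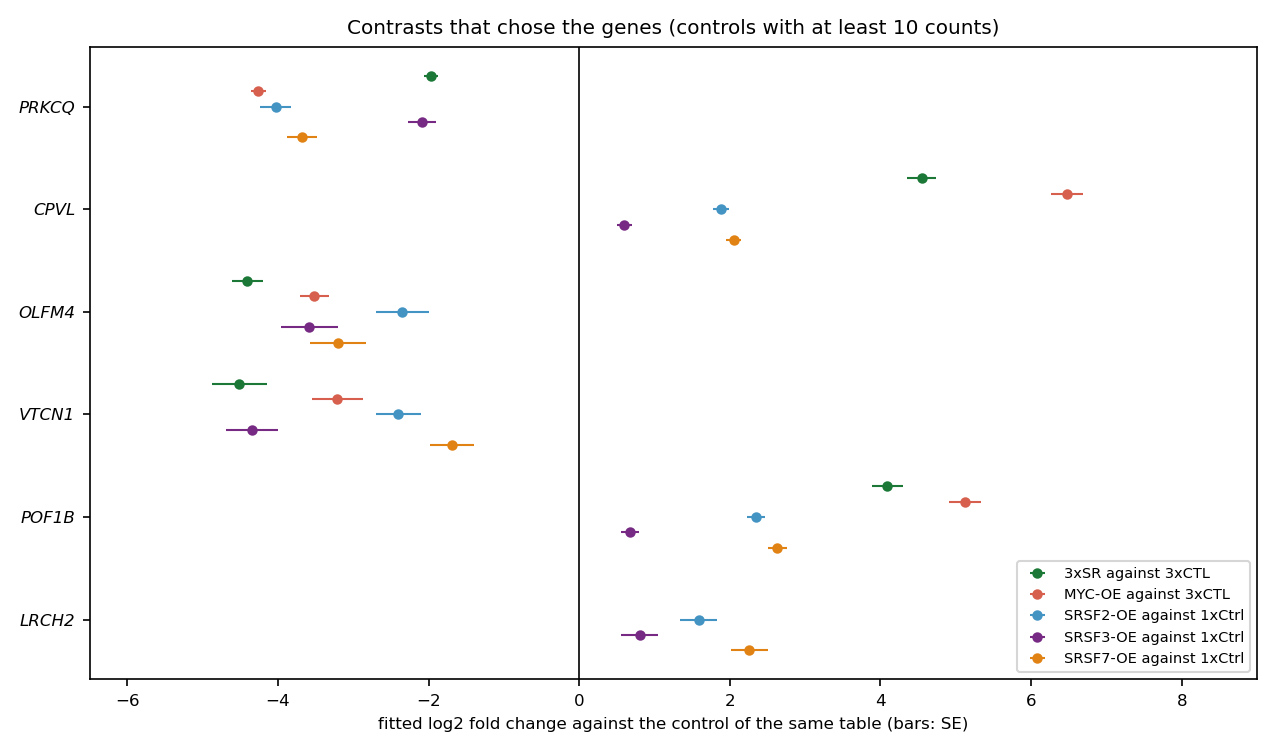
Fitted log2 fold change against the control of the same table (horizontal axis; bars are SE) for the genes and contrasts whose control group held at least 10 counts; colours are the 5 lines. PRKCQ, OLFM4 and VTCN1 lie left of 0 in every line and CPVL and POF1B right of it, with SRSF3-OE nearest to 0 for CPVL (0.60) and POF1B (0.67).

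LRCH2 and TSPAN8 were close to undetected in a control. LRCH2 had 2, 0 and 0 counts in the 3xCTL libraries, and its level was 0.143, 0.0915 and 0.0840 CPM in 3xSR and 0.798, 0.787 and 0.950 in MYC-OE. In the second table LRCH2 was at 0.226, 0.137 and 0.219 CPM in 1xCtrl, 0.668, 0.527 and 0.535 in SRSF2-OE, 0.398, 0.249 and 0.357 in SRSF3-OE and 0.892, 1.03 and 0.853 in SRSF7-OE. The 3xSR libraries thus overlapped with 1xCtrl, the control of the other table. Against 1xCtrl its log2 fold changes were 1.58 ± 0.25, 0.80 ± 0.25 and 2.26 ± 0.25 (SE) in SRSF2-OE, SRSF3-OE and SRSF7-OE. Against the 2 counts of 3xCTL the ratio of summed counts was 32.5 in 3xSR (95% interval 8.58 to 274.7) and 255.8 in MYC-OE (70.5 to 2117), intervals that cover counting error only. Both counts lay in 3xCTL replicate 1, and without it LRCH2 was at least 6.45-fold and 51.3-fold higher than the floor.

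TSPAN8 had 0, 0 and 4 counts in 3xCTL and 5, 2 and 0 in 1xCtrl. The tetraspanin's level was 0.181, 0.193 and 0.175 CPM in 3xSR, 1.08, 0.962 and 1.26 in MYC-OE, 0.681, 0.673 and 0.588 in SRSF2-OE and 0.409, 0.337 and 0.234 in SRSF7-OE. In SRSF3-OE it reached 0.0306, 0.0265 and 0.0838 CPM (6, 5 and 19 counts), which overlapped with 1xCtrl. Set against the control, the ratios of summed counts were 27.8 in 3xSR (10.5 to 104.2), 167 in MYC-OE (64.9 to 614.5), 56 in SRSF2-OE (26.9 to 140.1), 27.2 in SRSF7-OE (13 to 68.4) and 4.20 in SRSF3-OE (1.81 to 11.3), each with its 95% counting interval. Without 3xCTL replicate 3, which held all 4 counts, TSPAN8 was at least 12.8-fold higher than the floor of 3 counts a library in 3xSR and 76.6-fold in MYC-OE, and without 3xCTL replicate 1 the ratios were 16.8 and 100.6. Without 1xCtrl replicate 1 the ratios in SRSF2-OE, SRSF3-OE and SRSF7-OE were 136.8, 10.3 and 66.5. They were lower without 1xCtrl replicate 3, at 38.1, 2.86 (1.23 to 7.7) and 18.5, and without replicate 2, at 48.7, 3.66 and 23.7. The gene lies over LGR5, a receptor gene on the opposite strand, with no shared exon base, and LGR5 held at most 12 counts in any library.

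AGTR1 and CHST9 had no count in any 3xCTL library, at a floor of 3 counts a library (0.0151 CPM on average). AGTR1 was at 0.275, 0.335 and 0.112 CPM in 3xSR and 0.326, 0.374 and 0.283 in MYC-OE, at least 15.9-fold and 21.6-fold higher than that floor. In 1xCtrl it had 6, 0 and 0 counts, and it was at 0.253, 0.170 and 0.241 CPM in SRSF2-OE, 0.724, 0.657 and 0.467 in SRSF3-OE and 0.188, 0.154 and 0.130 in SRSF7-OE. The angiotensin receptor was the one gene of the 9 with its highest level in SRSF3-OE, whose libraries lay above all others. Its ratios to the 6 counts of 1xCtrl were 21.8 (9.78 to 60.5), 60.8 (27.7 to 166.7) and 15.4 (6.89 to 42.9) in SRSF2-OE, SRSF3-OE and SRSF7-OE. All 6 lay in replicate 1, and without it the lines were at least 15.3-fold, 42.7-fold and 10.9-fold higher than the floor. Without 1xCtrl replicate 2 the ratios were 13.6, 37.8 and 9.60.

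CHST9 had the lowest peak level of the 9 per kilobase of exon, 0.0150 CPM per kb in SRSF7-OE, against 7.09 for CPVL in MYC-OE and 3.90 for PRKCQ in 3xCTL. It was at 0.0770, 0.173 and 0.203 CPM in 3xSR and 0.0937, 0.145 and 0.0751 in MYC-OE, at least 9.97-fold and 6.90-fold higher than the floor. In 1xCtrl it had 1, 0 and 2 counts, and it was at 0.0786, 0.0203 and 0.0353 CPM in SRSF2-OE, 0.133, 0.101 and 0.128 in SRSF3-OE and 0.275, 0.162 and 0.0822 in SRSF7-OE. The ranges of the overexpressing lines overlapped from each to the next, and only the controls stood apart. Its ratios to the 3 counts of 1xCtrl were 8.98 (2.78 to 46.1), 24.2 (7.96 to 120) and 32.9 (11 to 161.5) in SRSF2-OE, SRSF3-OE and SRSF7-OE. They were 5.58, 15.0 and 20.4 without 1xCtrl replicate 2 and 18.3, 49.4 and 67.1 without 1xCtrl replicate 3. CHST9 shares 360 of its 11521 exon bases with AQP4-AS1 on the opposite strand.

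All 9 genes passed the filter on low counts in both tables, and a gene near 0 in the controls passed only through the lines in which it is high, so that it had to differ. Of 22941 genes tested in both tables, 229 (0.998%) were called higher in all 5 lines and 142 (0.619%) lower at an adjusted p under 0.05 (edgeR, Benjamini-Hochberg). Per contrast the called share was 15.3% higher and 13.7% lower in 3xSR, 18% and 17.3% in MYC-OE, 11.6% and 11.9% in SRSF2-OE, 15% and 14.1% in SRSF3-OE, and 9.03% and 8.26% in SRSF7-OE. The members fell among these by the rule itself. Ranked by the smallest of the 5 fitted changes, OLFM4, PRKCQ and VTCN1 stood 4th, 5th and 6th of the 2781 genes with a negative sign in each line. Of the 2478 with a positive sign AGTR1 stood 2nd, CHST9 4th, TSPAN8 11th, LRCH2 98th, POF1B 126th and CPVL 150th. PRLR, the prolactin receptor gene, stood 1st there and is not a member, so the 9 are examples of the shared shift and not its full extent. The fitted changes of genes near 0 in a control depend on a prior count, and the 3xSR and MYC-OE contrasts share 3xCTL as the other 3 share 1xCtrl.

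The 2 control lines themselves differed. Their direct difference did not enter the rule, but the same control libraries did. The p-values below are thus not free of that selection, and the share of members called is not read against that of all genes. By edgeR's quasi-likelihood test over all 21 libraries, 6 of the 9 genes passed in 1xCtrl against 3xCTL, where 26.1% of all 25013 genes tested did, 14.7% higher and 11.5% lower in 1xCtrl. PRKCQ fell by 1.16 on the log2 scale (SE 0.14, adjusted p 5.51e-06), OLFM4 by 1.79 (SE 0.29, adjusted p 0.000103) and VTCN1 by 1.64 (SE 0.31, adjusted p 0.000428). CPVL rose by 3.85 (SE 0.17, adjusted p 5.17e-12) and POF1B by 2.46 (SE 0.17, adjusted p 3.39e-09). LRCH2 was higher by 5.65 (SE 0.50), or 8.35 without 3xCTL replicate 1, which held its 2 counts. With 2, 0 and 0 counts in 3xCTL, LRCH2 passed the filter only through groups in which it is high. Its call, counted above, was thus favoured by the filter and is a description. In each of these 6 genes 1xCtrl thus stood on the side of 3xCTL on which the overexpressing lines stood. Where all lines lie beyond both controls, a control must stand between the other and the lines, and only which of them was free. For TSPAN8, AGTR1 and CHST9 both controls were under the floor of 3 counts a library on average, and no fold is given. The control line and the table of origin cannot be told apart. The lumican gene LUM moved in the same sense, from 37.8 ± 2.00 CPM in 3xCTL to 20.1 ± 3.47 in 1xCtrl and 6.24 to 16 in the lines' means (SD, n = 3), and its part was not tested.

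**Figure D3:**
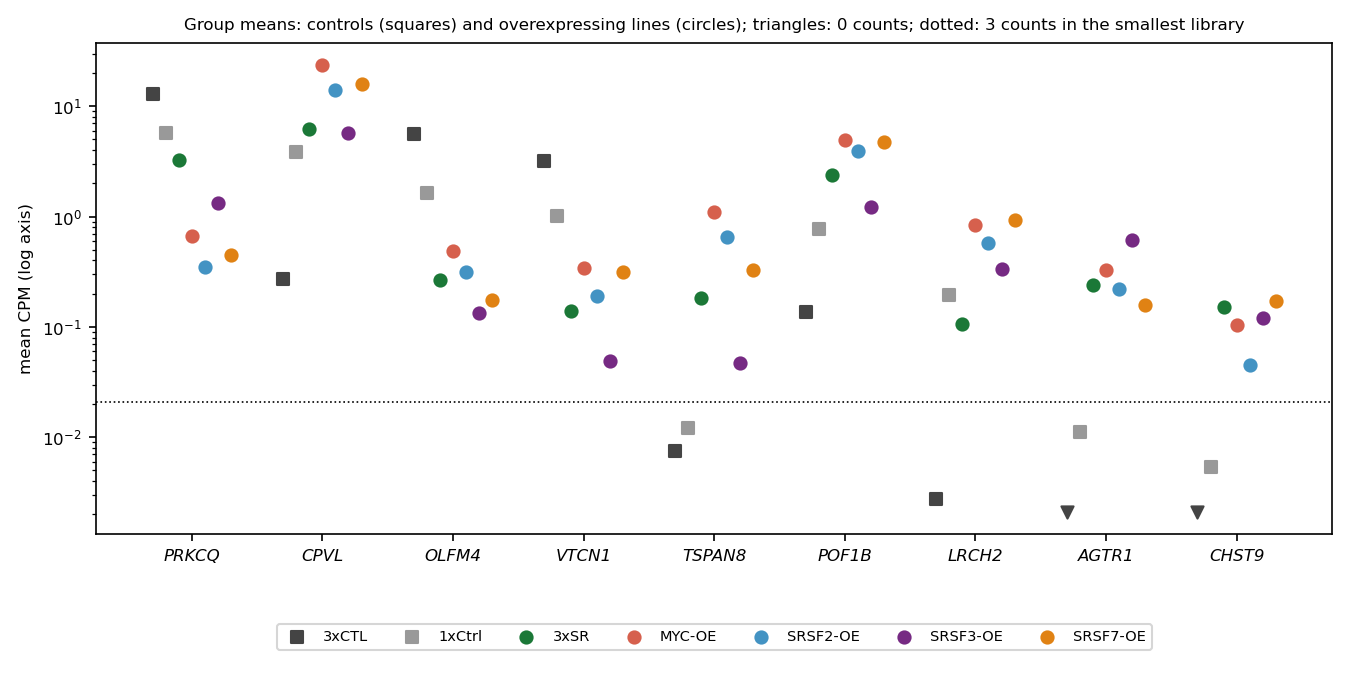
Mean CPM of each gene (vertical log axis) in the 2 controls (squares) and the 5 overexpressing lines (circles); triangles mark groups with 0 counts, placed at an arbitrary height, and the dotted line is 3 counts in the smallest library. For PRKCQ, OLFM4, VTCN1, CPVL and POF1B, 1xCtrl lies between 3xCTL and all 5 lines, while LRCH2 in 3xSR (0.106 CPM) lies under 1xCtrl (0.194 CPM).

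The lines also differed from each other. The rule did not fix the sign of these differences, but each subtracts fold changes on which the genes were selected. Here and for the single lines below, the p-values are thus not free of that selection. The share of members called is not read against that of all genes. MYC-OE and 3xSR share a table, and 7 of the 9 genes passed the test between them, as 34.9% of all genes did. PRKCQ was lower in MYC-OE (-2.29 on the log2 scale, 95% interval -2.51 to -2.08, adjusted p 6.30e-08), and LRCH2 was higher by 2.98 (2.19 to 3.76, adjusted p 8.65e-05). TSPAN8 was higher in MYC-OE by 2.58 (1.70 to 3.46, adjusted p 0.000522), CPVL by 1.93 (1.57 to 2.29, adjusted p 1.60e-05) and POF1B by 1.03 (0.66 to 1.41, adjusted p 0.000729). OLFM4 and VTCN1 were the less reduced in MYC-OE, with 0.89 (0.46 to 1.32, adjusted p 0.00450) and 1.30 (SE 0.36, adjusted p 0.0181) above 3xSR. No difference was called for AGTR1 (0.43, -0.48 to 1.34) or CHST9 (-0.53, -1.77 to 0.72), whose intervals reach past 1 log2 unit in 1 direction each. The VTCN1 call was lost without MYC-OE replicate 3 (adjusted p 0.0643), and that of OLFM4 in limma-voom (adjusted p 0.0529).

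**Figure D4:**
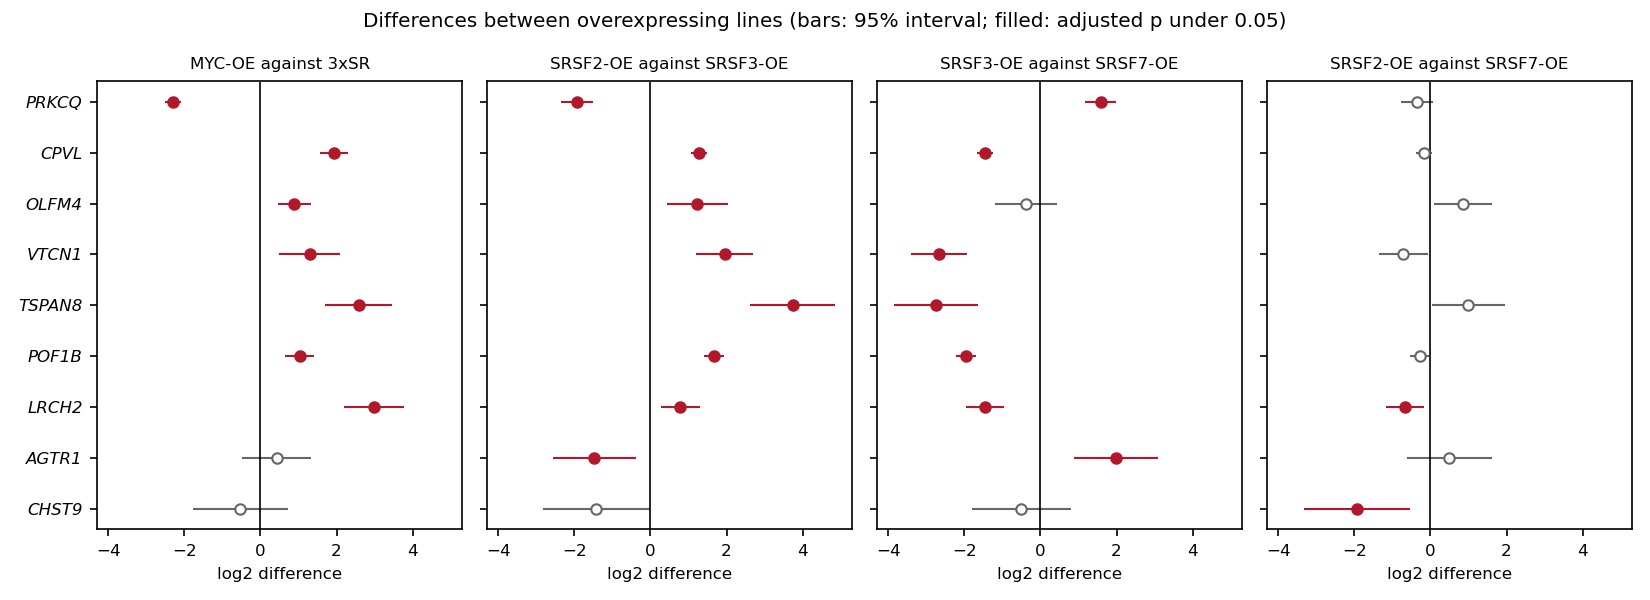
Log2 difference between pairs of overexpressing lines (horizontal axes; bars are 95% intervals, filled points passed an adjusted p of 0.05) for the 9 genes. SRSF3-OE differs from both other single lines in the same sense for PRKCQ, CPVL, VTCN1, TSPAN8, POF1B, LRCH2 and AGTR1. Between SRSF2-OE and SRSF7-OE only LRCH2 and CHST9 passed.

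SRSF3-OE stood apart among the single lines. Against it, SRSF2-OE differed in 8 of the 9 genes (26.8% of all genes) and SRSF7-OE in 7 of the 9 (35.2% of all genes) by the same edgeR test. PRKCQ was lower in SRSF2-OE than in SRSF3-OE (-1.94, 95% interval -2.36 to -1.52, adjusted p 1.43e-05), and higher in SRSF3-OE than in SRSF7-OE by 1.59 (1.18 to 2.00, adjusted p 3.14e-05). CPVL was higher in SRSF2-OE by 1.28 (SE 0.10, adjusted p 1.71e-06) and lower in SRSF3-OE than in SRSF7-OE (-1.45, -1.66 to -1.24, adjusted p 2.72e-07). POF1B differed by 1.68 (1.42 to 1.94, adjusted p 9.61e-07) and -1.96 (-2.22 to -1.70, adjusted p 1.18e-07) in these 2 contrasts. VTCN1 differed by 1.95 (1.20 to 2.69, adjusted p 0.00112) and -2.66 (-3.40 to -1.93, adjusted p 5.35e-05). TSPAN8 differed by 3.74 (2.61 to 4.86) and -2.74 (-3.85 to -1.63), or 4.48 and -3.50 without SRSF3-OE replicate 3. With 6, 5 and 19 counts in SRSF3-OE, TSPAN8 passed the filter only through the lines in which it is high. Its 2 calls, counted above, were thus favoured by the filter and are a description.

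The remaining genes were less sure. AGTR1 was lower in SRSF2-OE than in SRSF3-OE (-1.48, -2.57 to -0.39, adjusted p 0.0455), a call that was lost when any 1 of the 6 libraries was left out (adjusted p from 0.0704 to 0.158). It was higher in SRSF3-OE than in SRSF7-OE by 1.98 (0.87 to 3.09, adjusted p 0.00880). LRCH2 differed by 0.78 (0.27 to 1.29, adjusted p 0.0263) in SRSF2-OE against SRSF3-OE, which was lost without SRSF2-OE replicate 1 or SRSF3-OE replicate 2 (adjusted p up to 0.0806), and by -1.46 (-1.97 to -0.94, adjusted p 0.000356) in SRSF3-OE against SRSF7-OE. OLFM4 was higher in SRSF2-OE than in SRSF3-OE by 1.23 (0.43 to 2.03, adjusted p 0.0255), lost in limma-voom and without SRSF2-OE replicate 1 or any 1 SRSF3-OE library (adjusted p up to 0.15). OLFM4 in SRSF3-OE against SRSF7-OE (-0.38, -1.19 to 0.43) and CHST9 in both contrasts (-1.42, -2.81 to -0.02, and -0.51, -1.81 to 0.79) were not called.

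SRSF2-OE and SRSF7-OE gave the fewest calls of the pairs of single lines. Few calls do not make their levels alike, since several of the intervals below exclude no difference. Only LRCH2 (-0.68, 95% interval -1.17 to -0.18, adjusted p 0.0484) and CHST9 (-1.93, -3.32 to -0.54) passed the edgeR test between SRSF2-OE and SRSF7-OE, where 24.2% of all genes did. CHST9 had 18, 5 and 6 counts in SRSF2-OE and passed the filter only through other lines, so its call is a description. LRCH2 lost its call without SRSF2-OE replicate 2 or 3 or any 1 SRSF7-OE library, and CHST9 without SRSF2-OE replicate 2 or 3 or SRSF7-OE replicate 1 or 2 (adjusted p up to 0.125 and 0.201). For the other genes the intervals bound the difference: CPVL -0.38 to 0.04, POF1B -0.53 to -0.03, PRKCQ -0.77 to 0.07, VTCN1 -1.36 to -0.07, OLFM4 0.08 to 1.63, TSPAN8 0.04 to 1.95 and AGTR1 -0.61 to 1.61.

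Patterns over the lines were read from these values after they were seen, without a test of their own. PRKCQ, CPVL, TSPAN8 and POF1B lay further from the control in MYC-OE, SRSF2-OE and SRSF7-OE than in 3xSR and SRSF3-OE of their own table. OLFM4 and VTCN1 were lowest in 3xSR of the first table and in SRSF3-OE of the second, although OLFM4 in SRSF3-OE overlapped with SRSF7-OE. Across the 21 libraries CPVL and POF1B had a Pearson's r of 0.962 on log2 CPM, CPVL and LRCH2 0.947, and OLFM4 and VTCN1 0.905, as a description of points that share groups and tables. Once the group means were removed, the correlations of member pairs lay between -0.66 and 0.49, with -0.66 for CPVL and POF1B.

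The effect of 3xSR was also set beside the sum of the SRSF2-OE, SRSF3-OE and SRSF7-OE effects on the log2 scale, each against its own control, in 1 edgeR fit. This combines the fold changes on which the genes were selected, and the sum of 3 effects of 1 sign is larger than each of them, so the values are a description without a test. Over all genes 19.9% were called for this difference, from which nothing is read for the 9. PRKCQ was 7.87 log2 units less reduced in 3xSR than the sum (SE 0.36), OLFM4 4.75 (SE 0.75) and VTCN1 3.94 (SE 0.83). POF1B was raised less than the sum (-1.53, SE 0.42), while CPVL (0.04, SE 0.35) lay near it. LRCH2 gave 0.17 (SE 0.47), but this rests on 2 counts in 3xCTL. It ranged from -0.29 to 2.87 without 1 library, so no closeness to the sum is read for LRCH2. For TSPAN8, AGTR1 and CHST9 no size is given because both controls were under the floor. The single effects share 1xCtrl, while 3xSR is set against 3xCTL, and the levels of these genes in both controls are those given above.

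Most of the families to which the genes belong gave calls in both directions. Members are left out of these counts, which run over the 5 contrasts against a control (edgeR, adjusted p under 0.05 over all genes), and over all genes 26.8% of such tests were called. Of the 8 other protein kinase C isoforms, 8 calls were higher and 6 lower in 40 tests (35%). PRKCI, an atypical isoform, rose in 4 lines (0.38 in 3xSR, 0.23 in MYC-OE, 0.25 in SRSF7-OE and 0.50 in SRSF3-OE), and PRKCE fell in 4 (by 0.32 in 3xSR, 0.47 in MYC-OE, 0.25 in SRSF2-OE and 0.24 in SRSF3-OE). In the 12 genes of diacylglycerol signalling and the CARD-BCL10-MALT1 complex, 12 calls were higher and 9 lower in 60 tests (35%). The scaffold gene CARD14 fell in the same 4 lines as PRKCE, by 1.06 in MYC-OE and 1.60 in SRSF3-OE, while RASGRP3, an exchange factor that binds diacylglycerol, rose in these 4 (0.85 in SRSF2-OE to 1.56 in MYC-OE). MALT1, the protease of the complex, fell in MYC-OE, SRSF2-OE and SRSF7-OE (-0.58, -0.45 and -0.40). The list medians lay between -0.05 and 0.19, and those of the kinases between -0.10 and 0.19, against -0.03 to -0.004 over all genes.

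The B7 family had 12 calls higher and 9 lower in 35 tests (60%). PDCD1LG2, the PD-L2 gene, rose in 4 lines (0.98 in 3xSR, 1.03 in MYC-OE, 0.85 in SRSF2-OE and 1.40 in SRSF3-OE). NCR3LG1 fell in MYC-OE, SRSF2-OE and SRSF7-OE (-0.77, -0.66 and -0.61) and rose in SRSF3-OE (0.39). CD276, the B7-H3 gene, fell in 3xSR and SRSF3-OE (-0.47 each) and rose in MYC-OE and SRSF7-OE (0.20 and 0.29). The tetraspanins had 29 calls higher and 25 lower in 135 tests (40%). Of 27 tested, 14 rose and 1 fell in MYC-OE, and 2 rose and 10 fell in SRSF3-OE, with medians of 0.31 and -0.30 against -0.005 and -0.025 over all genes. TSPAN15 was called in every line but with both signs, TSPAN5 rose in 4 lines by 0.31 to 0.88, and CD63 rose in 4 lines by 0.19 to 0.31.

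Both other serine carboxypeptidases were measured: CTSA rose in 4 lines by 0.25 to 0.59 and SCPEP1 fell in 3 by 0.24 to 0.44 (4 calls higher and 3 lower in 10 tests, 70%). The other olfactomedin-domain genes gave 5 calls higher and 4 lower in 25 tests (36%). OLFML2A was called in each line, lower in 3xSR, SRSF2-OE and SRSF3-OE (-0.23, -0.43 and -1.15) and higher in MYC-OE and SRSF7-OE (0.63 and 0.24). OLFM2 rose in 3xSR, MYC-OE and SRSF7-OE (0.56, 1.48 and 0.83), and OLFML3 fell in 3xSR (-0.97). The 3 LRCH paralogs gave 2 calls in 15 tests (13.3%), LRCH3 in 3xSR (0.40) and LRCH1 in SRSF3-OE (0.31). In the renin-angiotensin system 5 calls were higher and 8 lower in 35 tests (37.1%): ACE, which makes angiotensin II, rose in MYC-OE, SRSF2-OE and SRSF7-OE (0.80, 0.78 and 1.29) and fell in 3xSR (-0.86). LNPEP fell in MYC-OE, SRSF2-OE and SRSF7-OE (-0.33, -0.36 and -0.33). The sulfotransferases related to CHST9 gave 5 calls higher and 6 lower in 30 tests (36.7%), with CHST14 lower in 3 lines (-0.77 to -0.34). CHST11 fell in 3xSR and MYC-OE (-0.24 and -0.15) and rose in SRSF3-OE (0.33), and CHST10 rose in 3xSR and SRSF3-OE (0.25 and 0.27).

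Markers of luminal progenitors and secretory cells gave 20 calls higher and 26 lower in 70 tests over 14 genes (65.7%). PROM1, the gene of the surface marker CD133, rose in all 5 lines, by 2.75 in 3xSR, 4.28 in MYC-OE, 0.82 in SRSF2-OE, 1.33 in SRSF7-OE and 1.94 in SRSF3-OE. PROM1 had 27 counts in 3xCTL (0 to 17 a library), too few to pass the filter without the lines in which it is high. Its rise in 3xSR and MYC-OE was thus favoured by the filter. When a library was left out, its changes were 2.20 to 3.71 in 3xSR and 3.73 to 5.25 in MYC-OE. The upper ends came without 3xCTL replicate 3. MUC1, the gene of a mucin of the apical membrane, fell in all 5, by 1.23, 1.30, 1.16, 0.40 and 1.64 in the same order. AGR2 fell in 3xSR, MYC-OE and SRSF3-OE (-1.06, -0.34 and -2.67) and rose in SRSF7-OE (0.67). The median of the list was lowest in SRSF3-OE (-0.71) and highest in SRSF7-OE (0.25).

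Of 28 genes looked at on either side of a member, up to 4088861 bases away, 15 passed the filter in all 5 contrasts. Over all genes 26.8% of the tests in these contrasts were called, and whether neighbours move with the members was not tested. By the GENCODE positions used here, PRKCQ-AS1 starts 118 bases from PRKCQ and shares no exon with it. The RefSeq promoter window of PRKCQ shown above puts the start of PRKCQ past that point, so by RefSeq the genes overlap there. The annotation and strand setting of the counting are not given, and whether reads of these genes were mixed was not tested. PRKCQ-AS1 was at 8.72 ± 0.100 CPM in 3xCTL and 3.99 ± 0.287 in 1xCtrl (SD, n = 3). It fell in 3xSR, MYC-OE, SRSF2-OE and SRSF7-OE by 1.05, 2.20, 0.80 and 0.54 on the log2 scale, and its value in SRSF3-OE was -0.17 (not called). ZNF711, a zinc finger gene 4034 bases from POF1B, rose in 3xSR, MYC-OE, SRSF2-OE and SRSF7-OE by 2.32, 3.19, 0.76 and 1.27, and its value in SRSF3-OE was 0.005 (not called). It went from 0.593 ± 0.0852 CPM in 3xCTL to 3.18 ± 0.215 in 1xCtrl. TRIM45, the protein-coding gene nearest to VTCN1 at 21000 bases and picked after the values were seen, fell in 4 lines by 0.29 to 0.78, with -0.22 in SRSF7-OE (not called). IL13RA2, 90639 bases from LRCH2 and picked in the same way, rose in 4 lines by 0.48 to 2.43, with -0.29 in SRSF7-OE (not called). TRIL, 36939 bases from CPVL, had no count in 3xCTL and 10 to 37 counts a library in MYC-OE, where it was called higher. It was not called in the other lines. Without a count in 3xCTL, TRIL passed the filter of that table only through the lines that held it. Its call was thus favoured by the filter and is a description. CDH2, 765649 bases from CHST9 and also picked after the values were seen, fell in 3xSR and MYC-OE (-0.97 and -0.31). PTPRR and ZFC3H1 on either side of TSPAN8 lay between -0.48 and 0.45 in every line. PFKFB3 beside the lowered PRKCQ rose in MYC-OE, SRSF2-OE and SRSF3-OE (0.23, 0.45 and 0.36). SFMBT2, also beside PRKCQ, rose in SRSF3-OE (1.05). PRR15 beside the raised CPVL fell in SRSF3-OE (-1.40) and rose in MYC-OE and SRSF7-OE (0.44 and 0.53). MAN1A2 beside VTCN1 fell in MYC-OE and SRSF2-OE (-0.27 and -0.41). CHM beside POF1B rose in 3xSR and SRSF3-OE (0.23 and 0.34) and fell in MYC-OE (-0.21). ZIC1 and LINC02656 were called in no line.

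**Figure D5:**
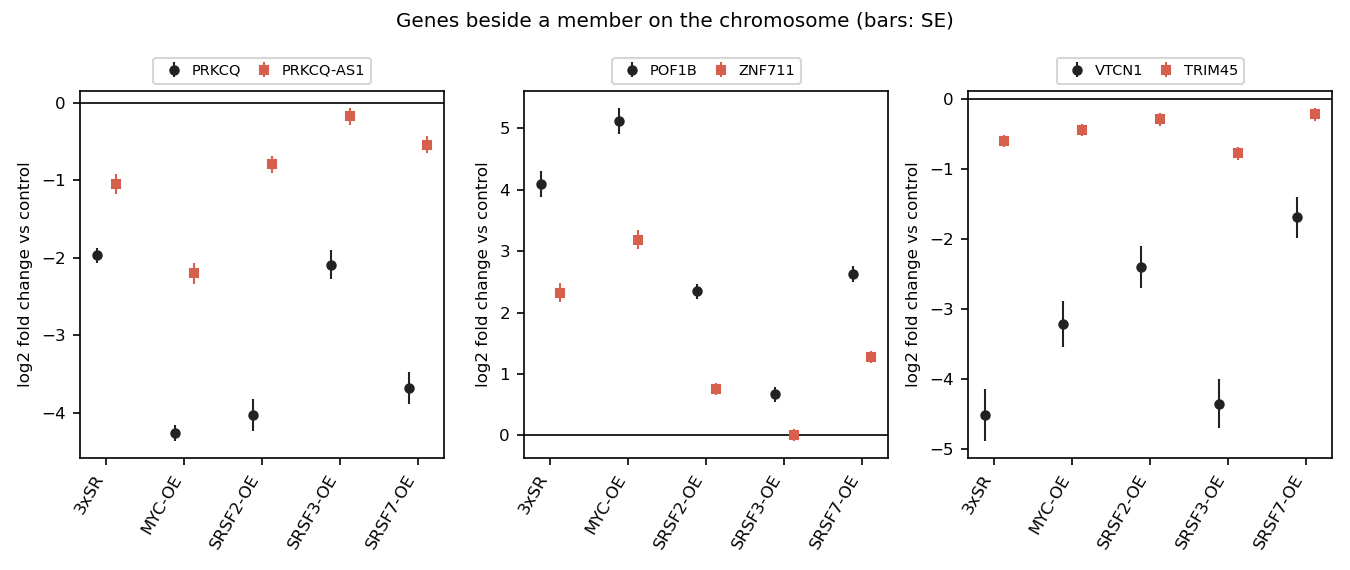
Log2 fold change against control (vertical axes; bars are SE) in the 5 lines for a member (black circles) and a gene beside it on the chromosome (red squares). PRKCQ-AS1 and ZNF711 have the sign of PRKCQ and POF1B in the 4 lines other than SRSF3-OE, where they lie at -0.17 and 0.005.

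The genes with the most similar pattern over the 21 libraries were taken among those with a mean of at least 1 CPM, by Pearson's r of log2 CPM. For PRKCQ they were ERBB3 (0.947), SP3P (0.931) and SOCS7 (0.928), for OLFM4 IVD (0.932), SEMA5A (0.925) and FMN1 (0.911), and for VTCN1 C22orf46P (0.951), ABCA4 (0.950) and MATN2 (0.939). ERBB3 went only from 143 CPM in 3xCTL to 106 in SRSF2-OE, whereas SP3P went from 6.91 to 0.326. For CPVL they were NEFH (0.991), GRB10 (0.984) and CRISPLD1 (0.983), for POF1B CSRP2 (0.970), PIM1 (0.968) and GRB10 (0.968), and for LRCH2 ARMCX2 (0.973), GAS6-DT (0.972) and ZNF711, the neighbour of POF1B on the same chromosome, (0.970). NEFH, a neurofilament gene, stood at 2.74 CPM in 3xCTL, 9.22 in 1xCtrl and 21.8 in MYC-OE. For TSPAN8 they were ATP5MC3 (0.939), PPM1L (0.934) and COBL (0.929), for AGTR1 ITGA4 (0.949), PITPNC1 (0.933) and STAU1 (0.933), and for CHST9 AK4 (0.891), ITGA4 (0.887) and C2orf88 (0.857). ITGA4, an integrin gene, was at 0.791 CPM in 3xCTL and 1.65 in 1xCtrl against 5.43 to 10.3 in the lines.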

How the data were processed

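Gene-level whole-number counts were deposited by the authors as 2 tables, and their column sums differ, as raw counts do. The submitters' processing notes name Trimmomatic 0.39, STAR, StringTie 2.1.3b and GRCh38.p13, and the annotation release and strand setting of the counting are not given in the sources used here. Groups and replicate numbers follow the sample titles. Positions came from GENCODE 29, which held 58516 of the 60668 identifiers. Tests used edgeR 4.0.16 under R 4.3.3 (filterByExpr with minimum count 10 and total 15, TMM scaling, robust glmQLFit, quasi-likelihood F test, Benjamini-Hochberg over all genes tested, threshold 0.05), each table fitted whole. 1xCtrl against 3xCTL and the sum of single effects used 1 fit of all 21 libraries. CPM levels used the TMM scale of that fit, and ratios of counts carry exact 95% intervals for counting error alone, because copies made by PCR were not marked. Replicates differed by more than counting error (chi-square per degree of freedom 17.1 to 302). The largest values came from pairs with replicate 2 of a control. They were 212 and 302 in 1xCtrl (28.4 for replicates 1 and 3) and 118 and 90.8 in 3xCTL (27.6 for replicates 1 and 3). The fit was tested on simulated data.

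The members, the family lists, the tests and the other settings were chosen with earlier results of these data known. Named are the 9 members, the targeted genes, the 3 genes of most similar pattern (prior count 2, mean of at least 1 CPM), the nearest gene on each side and up to 3 genes a list called in the most contrasts, some of which are not reported here; protein-coding neighbours, the removal of the GC trend and a pseudocount of 0.05 were added after the values were seen. Other settings were RLE, upper-quartile and total-count scaling, no filter or at least 10 counts in every library, DESeq2 1.42.0, limma-voom (limma 3.58.1), the 2 groups compared alone, the replicate number as a block, and leaving out each library, for the ratios of counts each control library (added after the values were seen).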

Additional observations from a re-analysis of the deposited data

How the results depend on the processing

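The sign of all 45 fold changes of the members against a control held under every setting that kept them, and under each of the 21 fits without 1 library. Their size moved by more than the replicate spread in 69 of the refits, mostly for genes near 0 in a control, such as AGTR1 in 3xSR (log2 2.54 to 8.98, 8.61 as fitted), TSPAN8 in 3xSR (2.02 to 8.21, 4.65 as fitted) and LRCH2 in MYC-OE (4.08 to 10.4, 7.76 as fitted), and for VTCN1 in SRSF3-OE (-4.46 to -3.43); the cause was not tested. A filter of at least 10 counts in every library left 25 of the 45 fold changes. With it 5 members were called in SRSF2-OE against SRSF3-OE, 1 in SRSF2-OE against SRSF7-OE and 4 in SRSF3-OE against SRSF7-OE, since fewer were tested. In SRSF2-OE against SRSF7-OE 1 member was called with upper-quartile scaling, without a filter and with the replicate block, and 0 to 3 without 1 library; the cause was not tested. Without 1 library, 5 to 7 members were called in SRSF2-OE against SRSF3-OE. The departures of CPVL and LRCH2 from the sum changed sign. CPVL gave -0.0061 with RLE scaling, -0.014 without a filter, -0.053 with the GC trend removed and -0.25 to 0.22 without 1 library. LRCH2 gave -0.16 with limma-voom, -0.11 with the GC trend removed and -0.29 to 2.87 without 1 library.

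With the GC trend removed, a setting chosen after the data were seen, 6999 genes were called in SRSF7-OE against 1xCtrl (2201 higher and 2013 lower as reported), and 397 higher and 313 lower in all 5 lines. Without 1 library the ranges were 2685 (without SRSF7-OE replicate 3) to 7321 (without 1xCtrl replicate 2) for that contrast, 3240 (without 1xCtrl replicate 1) to 6446 for the comparison with the sum, and 143 (without 1xCtrl replicate 1) to 281 higher in all 5. Total counts alone moved the share of higher calls from 47.3% to 36.6% in SRSF2-OE against SRSF7-OE, 50.7% to 35.3% in SRSF3-OE against SRSF7-OE, 56.8% to 69.9% for the sum, 49.2% to 36.7% in SRSF2-OE and 51.6% to 32.1% in SRSF3-OE, and upper-quartile scaling 47.2% to 61% in SRSF2-OE against SRSF3-OE. Deviations of libraries with the same replicate number had a mean correlation of -0.11 to 0.0068 per contrast, so the numbers were not taken as pairs. With the replicate block 7 members were called in each of MYC-OE against 3xSR, SRSF2-OE against SRSF3-OE and SRSF3-OE against SRSF7-OE. Between the controls 6 were called. AGTR1 and LRCH2 lost their call in SRSF2-OE against SRSF3-OE and SRSF7-OE, respectively, and there were 180 calls in the lists in place of 198. Genes near 0 in a control are limited by depth: 3 counts were 0.00948 to 0.0210 CPM.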
